A study of Mus musculus with 10 samples.

Results

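The genes described here build and run the motile cilia of ciliated cells, the hair-like organelles that beat and move mucus along the nasal passages. They were taken as a list of 37 gene symbols by their role in motile cilia, with no measured value in the rule, though earlier results of these data were known when the list was made. Of the 37 symbols, 36 had a row among the 24421 rows of the raw count table, and Dnah12, an inner dynein heavy chain, was not analysed here. All 36 passed the filter on low counts and stood among the 17197 genes tested. Libraries of poly(A)-selected RNA had been made from main olfactory epithelium (MOE), the sensory lining of the nose, taken whole from mice at postnatal day 14 that the labels give as C57BL/6, and read counts per gene were deposited for 10 libraries. The wild type (WT, 3 libraries) had both TAAR enhancers on both chromosomes, the heterozygous mice (het, 3 libraries) carried 1 allele with TAAR enhancer 1 and TAAR enhancer 2 deleted, and the homozygous mice (homo, 4 libraries) carried the double deletion on both alleles. By the study's methods the deletion came from 1 line, made by editing enhancer 1 in zygotes of mice that carried the enhancer 2 deletion on 1 or both alleles. The mice were of both sexes, and the study describes its knockout lines as kept on mixed C57BL/6J and 129 backgrounds. No ciliated cells were sorted, so that in this bulk tissue fewer cells of a type and less RNA per cell cannot be told apart.

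A motile cilium is a ring of paired microtubules around a central pair. Outer and inner dynein arms walk along the neighbouring microtubule and bend the cilium, radial spokes and the nexin link turn that force into a regular beat, and tektins stiffen the microtubules. The arms are assembled in the cytoplasm by dedicated factors before they enter the cilium. Foxj1 and the Rfx factors, which bind promoter sequences called X-boxes, switch on this gene program, while Mcidas and Ccno act earlier, when precursors multiply their centrioles. In the nose these cells lie in the respiratory lining next to the olfactory sheet. The cilia of olfactory sensory neurons carry odorant receptors, and the transport machinery and Rfx factors are shared between both kinds of cilia.

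The X-box is the sequence that Rfx factors bind. Only a part of it, called the core below, was searched for, as GTTGCC or, on the other strand, GGCAAC. A full X-box was not searched for, so that a promoter with the core need not hold an X-box. RefSeq promoters (GRCm38.p6, 250 bases before to 50 bases after the start) were given for 29 of the 36 genes. The core lay in 16 of the 29 (55.2%), against 14.1% of all 27025 genes with a promoter. A forkhead motif of the kind that Foxj1 binds, TGTTTAC or GTAAACA, lay in 2 of the 29, Ak7 and Sntn (6.90%), against 4.05% of all genes. In the 250 bases before the start alone, 12 of the 29 (41.4%) held the core and 2 held the forkhead motif. The following stretches, from the strand of the gene, show the X-box core in capitals in a regulator upstream of the program (Mcidas), an Rfx factor itself (Rfx2), an outer dynein arm chain (Dnaic2), a light chain (Dynlrb2), a central pair protein (Spag16) and tektins (Tekt1, Tekt2). The last shows the forkhead motif of Ak7.
Mcidas (chr13:112993662-112993689, plus strand): ggggaagccagGTTGCCaggttggttaa
Rfx2 (chr17:56831108-56831135, minus strand): gcttggtaaccGTTGCCgggcgcaacgc
Dnaic2 (chr11:114727382-114727409, plus strand): cagggttgctaGGCAACtggtaaactcc
Dynlrb2 (chr8:116504953-116504980, plus strand): cttcctgcctgGTTGCCtagcaacgggg
Spag16 (chr1:69826856-69826883, plus strand): ctaggcaacgcGTTGCCgtagtaactgc
Tekt1 (chr11:72361901-72361928, minus strand): cttctaactagGGCAACgttgcgtccgt
Tekt2 (chr4:126325768-126325795, minus strand): gcagctgcgcgGTTGCCtggctaagctg
Ak7 (chr12:105705840-105705868, plus strand): agtagagaaatTGTTTACccaagcagagc
In Spag16 a second core on the other strand lies within the printed stretch, in lower case. A match names letters only and was not tested for binding.

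The libraries held 21423861 to 27712948 counts each. The olfactory Taar genes, whose enhancers were deleted, summed to between 34.3 and 36.5 CPM in WT, 30.5 to 36.3 in het and 0.0947 to 0.225 in homo, so that the homo libraries stood apart from all others, while WT and het overlapped and were not told apart by this sum. CPM are read counts scaled to a library of 1000000 counts, after TMM scaling, which corrects library totals for their makeup, and all levels are given in this unit. The sensory neuron marker Omp stood at 3582 to 4807 CPM, and the supporting cell enzyme Cyp2g1 at 2463 to 3083 CPM. Of 15 markers of respiratory secretory cells, the neighbours of ciliated cells, the sum was 5929 to 7003 CPM in WT, 5992 to 6656 in het and 5629 to 7169 in homo. Bpifa1, a secreted protein of the nasal lining, led that list with a mean of 3872 CPM, whereas Tff3 had no count in any library and Scgb1a1, the club cell secretoglobin, had 6 counts in all. Motile cilia are also made by ependyma, the lining of the brain ventricles, and by the choroid plexus. Ttr, the abundant choroid plexus transcript, had 24 counts in the 10 libraries together, and Opalin, of oligodendrocytes, had none.

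The motile cilia genes were readily measured in the whole tissue. Their reads may come from ciliated cells, sensory neurons or other cells, and the source was not tested. The sums below are thus levels of the tissue and not of ciliated cells alone. Their mean levels ran from 2.34 CPM for Mcidas to 277 CPM for Spef2, with a median of 36.3 CPM. In 34 of the 36, every library held over 100 counts. The 2 others were Mcidas, with 29 to 89 counts, and Spag17, with 87 to 215. Summed over the 36 genes, the 3 WT libraries stood at 1958, 2036 and 1929 CPM, the 3 het libraries at 2098, 2271 and 1971 CPM, and the 4 homo libraries at 1997, 2209, 2023 and 1925 CPM. The sums overlapped between all genotypes, with means of 1974 ± 55.1 in WT, 2113 ± 151 in het and 2038 ± 121 in homo (SD; n = 3, 3 and 4). The highest het and the highest homo sum both came from the library numbered 2. For a single gene, the highest library exceeded the lowest by a median of 1.43 times, and by less than 2 times in 32 of the 36.

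**Figure D1:**
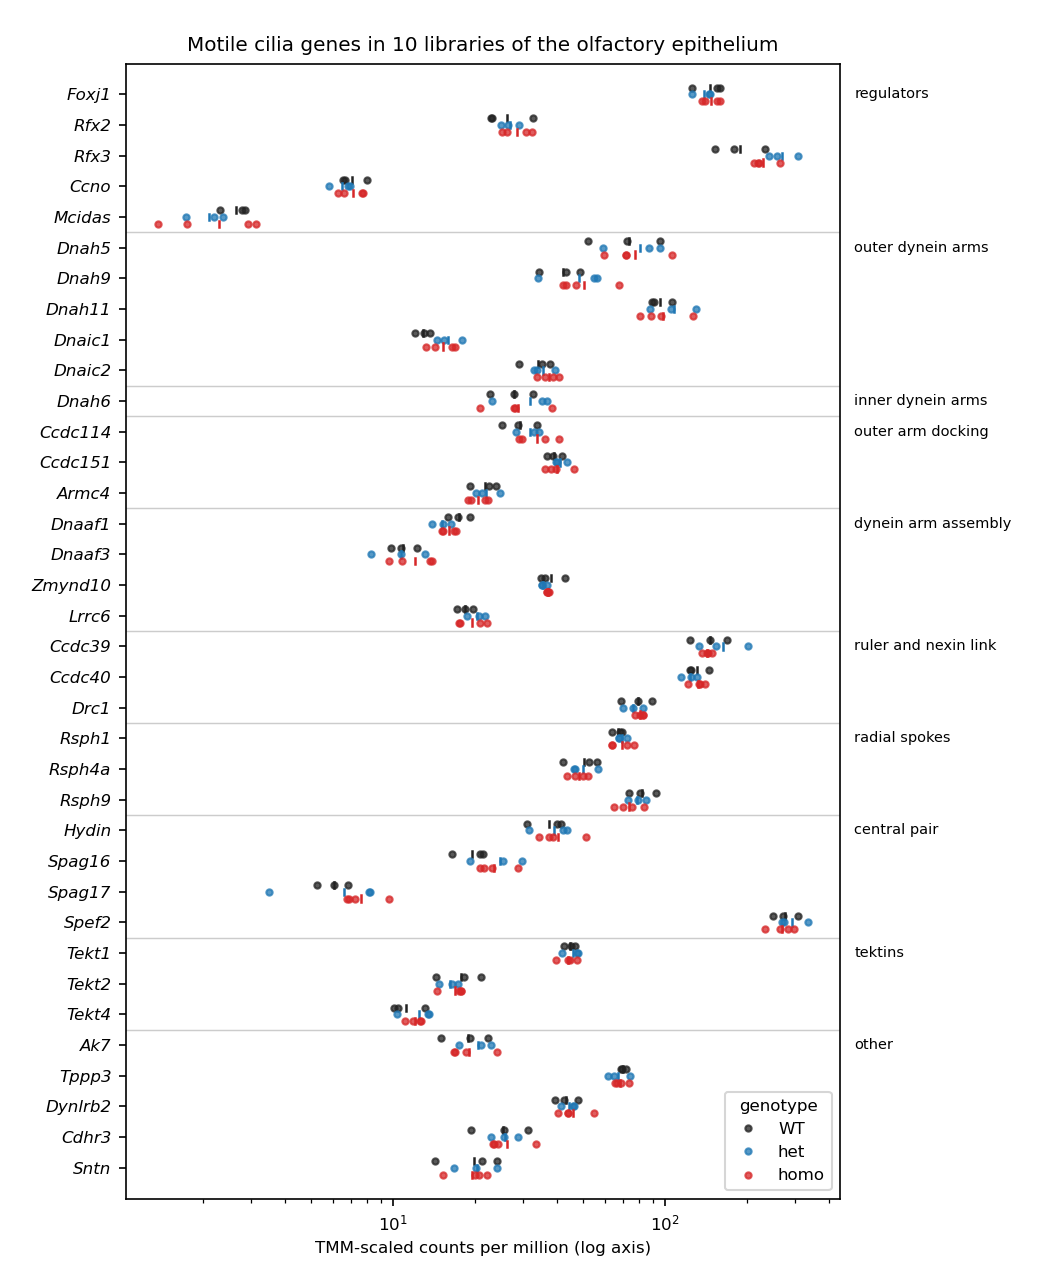
TMM-scaled CPM (log axis) of the 36 motile cilia genes in the 10 libraries, grouped by role. Each point is 1 library, black for WT, blue for het and red for homo, and each short bar is the mean of a genotype. The genotypes overlapped for every gene except Rfx3 and Dnaic1, where the het points lie above the WT points.

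Levels of different genes were compared per kilobase of exon (CPM per kb), since longer transcripts collect more reads. On that scale Rsph9, of the radial spoke head, and Dynlrb2, a dynein light chain, stood highest at 80.5 and 80.1 CPM per kb. Foxj1 followed at 55.1, and Rsph1 at 49.97. At the low end stood Spag17 of the central pair at 0.872, Mcidas at 0.985, the inner arm heavy chain Dnah6 at 2.32 and Hydin at 2.48 CPM per kb. Rsph9 and Dynlrb2 have 0.966 and 0.556 kb of exon, and Spag17, Mcidas, Dnah6 and Hydin have 7.86, 2.38, 12.7 and 15.8 kb. How far exon length itself bears on levels per kb was not tested. Within a single structure the level per kb differed widely: among the radial spoke genes it ran from 13.5 to 80.5 CPM per kb, and among the central pair genes from 0.872 to 27.96. The outer arm genes lay closer together, between 3.24 and 11.3 CPM per kb.

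Deletion of the enhancers was first compared between homo and WT. Of the 36 genes, 0 passed an adjusted p of 0.05 in edgeR's quasi-likelihood test, with 0.0698% of all genes tested called in this comparison. Those 12 genes called were all Taar genes. At an unadjusted p under 0.05 stood 1 of the 36, Rfx3, against 2.41% of all genes tested, and DESeq2 and limma-voom also called 0 of the 36. The median log2 fold change of the 36 genes was 0.04, with 24 genes higher and 12 lower in homo, while 50.03% of all genes tested were higher. Single genes ran from -0.20 for Mcidas to 0.33 for Spag17. The 95% interval stayed within a 2-fold change in either direction for all 36 genes, and within a 1.5-fold change for 31.

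Between het and WT, 0 of the 36 genes passed the adjusted p, and the background of genes called was 0%. At an unadjusted p under 0.05 stood 2 of the 36, Rfx3 and Dnaic1, both higher in het, against 1.92% of all genes tested, and DESeq2 and limma-voom called 0 of the 36. The het and WT libraries did not overlap for these 2 genes, and for 5.23% of all genes tested. The median log2 fold change was 0.04, with 24 of the 36 higher in het. Intervals lay within a 2-fold change for all 36 genes and within a 1.5-fold change for 28. Between homo and het, 0 of the 36 genes passed, with 0.0756% of all genes called, and 0 had an unadjusted p under 0.05, against 2.48% of all genes tested. Of the 13 genes called there, 12 were Taar genes and the other was Bglap3, an osteocalcin gene with near-identical copies whose reads cannot be told apart with certainty. DESeq2 and limma-voom called 0 of the 36 here as well. The median log2 fold change was 0.01, and intervals lay within a 1.5-fold change for 32 of the 36. In the test for any difference among the 3 genotypes, 0 of the 36 passed (0.0698% of all genes called), and the unadjusted p was under 0.05 for Rfx3 alone of the 36, against 1.98% of all genes tested. All comparisons with WT share the same 3 WT libraries. The study counts its libraries as littermate mice of each genotype, and the labels do not tie a library to a mouse or a litter.

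**Figure D2:**
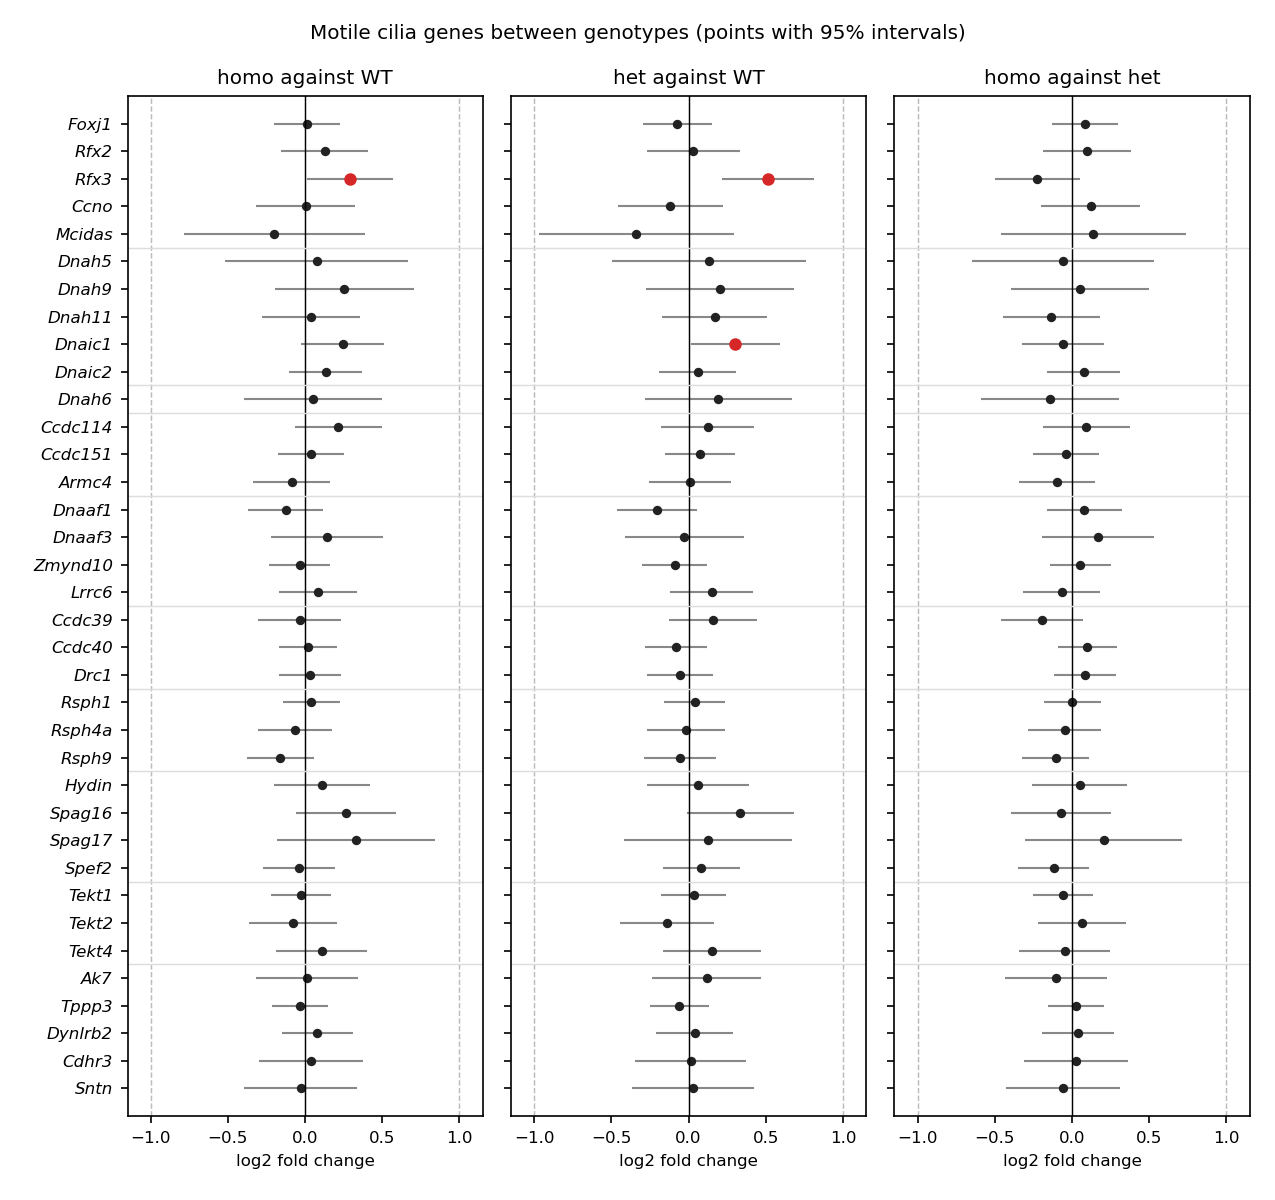
Log2 fold changes (x axis) of the 36 motile cilia genes in 3 comparisons of genotypes, with 95% intervals as bars and dashed lines at a 2-fold change. Red points mark an unadjusted p under 0.05, Rfx3 in homo against WT and Rfx3 and Dnaic1 in het against WT; none passed the adjusted test, and every interval stays between the dashed lines.

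Among the regulators, Rfx3 stood apart from the others in its spread between genotypes. Rfx3, which binds X-boxes and is needed for nodal, ependymal and other cilia, lies on the minus strand of chromosome 19 (27761721 to 28011166, mm10) in 19 exon blocks. It was at 152, 178 and 233 CPM in the WT libraries, 257, 307 and 240 CPM in the het libraries, and 220, 265, 212 and 219 CPM in the homo libraries. All het libraries stood above all WT libraries, whereas homo overlapped with both. The log2 fold change was 0.51 ± 0.14 (SE) for het against WT, with an unadjusted p of 0.00203 and an adjusted p of 1.00, and 0.29 ± 0.13 for homo against WT, with an unadjusted p of 0.0432 and an adjusted p of 1.00. Homo against het gave -0.23 ± 0.13, with an unadjusted p of 0.103. The WT libraries decided much of the size: without WT replicate 1 the homo against WT value was 0.15, and without WT replicate 3 it was 0.47. Across all choices of processing the adjusted p of Rfx3 for het against WT did not go below 0.743.

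Foxj1, the forkhead factor that commits a cell to motile cilia, lies on chromosome 11 (116330704 to 116335399, minus strand). Its level was 159, 154 and 125 CPM in WT, 146, 126 and 145 CPM in het, and 155, 137, 159 and 140 CPM in homo. The genotypes overlapped throughout, and the log2 fold change was 0.01 ± 0.10 for homo (unadjusted p = 0.900) and -0.07 ± 0.11 for het (0.508) relative to WT, and 0.08 ± 0.10 for homo relative to het (0.408). Its 95% interval for homo against WT ran from a 0.872-fold to a 1.17-fold level. Rfx2, the relative of Rfx3, averaged 27.3 CPM, and the early factors Ccno and Mcidas averaged 6.91 and 2.34 CPM. None of these had an unadjusted p under 0.05 in any comparison. The median log2 fold change in homo against WT was 0.03 for the 16 genes with the X-box core and 0.05 for the 13 without it, in het against WT it was 0.03 and 0.13, and in homo against het 0.05 and -0.06.

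The outer dynein arms hold the motors that set the beat frequency. Dnah5, the heavy chain whose loss immobilises airway cilia, lies on chromosome 15 (28203752 to 28472052, plus strand) and has 15.6 kb of exon in 79 blocks. It was at 72.1, 95.9 and 52.2 CPM in WT, 87.3, 95.6 and 58.9 CPM in het, and 71.9, 106, 71.7 and 59.7 CPM in homo. Within each genotype the library numbered 2 was highest, and the spread exceeded any difference between genotypes, with log2 fold changes of 0.07 ± 0.26 for homo (unadjusted p = 0.782) and 0.13 ± 0.28 for het (0.642) relative to WT. Homo relative to het gave -0.06 ± 0.26 (0.824). Dnah11, the most abundant heavy chain by CPM, was at 90.7, 106 and 89.7 in WT, 105, 130 and 87.7 in het, and 88.7, 126, 80.9 and 96.5 in homo. The library numbered 2 was again highest in every genotype.

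Dnaic1, an intermediate chain that holds the outer arm together, lies on chromosome 4 (41569775 to 41638158, plus strand). It was at 13.0, 13.6 and 12.1 CPM in WT, 15.3, 17.8 and 14.5 CPM in het, and 13.3, 16.5, 14.3 and 16.9 CPM in homo. The het libraries lay above the WT libraries without overlap, and homo overlapped with both. The log2 fold change was 0.30 ± 0.14 for het against WT (unadjusted p = 0.0400, adjusted p = 1.00) and 0.24 ± 0.13 for homo against WT (unadjusted p = 0.0736, adjusted p = 1.00). An exon of Enho overlaps Dnaic1 on the opposite strand, and whether reads were counted by strand was not stated, so that part of its count may belong to Enho. The same holds for 11 more of the genes with a partner on the opposite strand, among them Dnah9, Dnah11, Dnah6, Hydin, Spag17 and Ccdc39. All 5 outer arm genes had a positive log2 fold change in both comparisons with WT, between 0.04 and 0.25 in homo and between 0.06 and 0.30 in het, and 2 of the 5 were positive for homo against het. The inner arm heavy chain Dnah6 was at 32.8, 27.9 and 22.6 CPM in WT, 36.9, 35.3 and 23.2 in het, and 28.2, 38.4, 20.9 and 27.7 in homo.

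The genes that dock and assemble the arms showed narrow sums. Ccdc151, a docking factor, was at 41.7, 36.7 and 38.5 CPM in WT, 39.9, 43.6 and 39.8 CPM in het, and 38.0, 46.2, 36.1 and 39.7 CPM in homo. Zmynd10, which chaperones dynein chains in the cytoplasm, was at 35.0, 36.1 and 42.8 CPM in WT, 35.2, 35.2 and 36.6 CPM in het, and 36.6, 37.2, 37.5 and 36.9 CPM in homo. Leaving WT replicate 3 aside, the 9 libraries of Zmynd10 thus lay between 35.0 and 37.5 CPM, and its spread within genotypes, an SD of 0.09 on the log2 scale, was the lowest of the 36. The 3 docking genes summed to 84.4 to 94.4 CPM in WT, 93.0 to 96.6 in het and 86.6 to 104 in homo. The 4 assembly genes summed to 82.8 to 87.9, 80.5 to 83.1 and 80.2 to 90.0 CPM. None of these 7 genes had an unadjusted p under 0.05.

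Ccdc39 and Ccdc40 form the molecular ruler that sets the spacing of the inner arms and the nexin link along the microtubule, and they had the smallest p-values after Rfx3 for homo against het. Ccdc39, on chromosome 3 (33812362 to 33844310, minus strand), was at 123, 169 and 146 CPM in WT, 154, 202 and 133 CPM in het, and 142, 148, 136 and 143 CPM in homo. The 4 homo libraries lay within the range of the het libraries, and the log2 fold change was -0.19 ± 0.13 (unadjusted p = 0.140). That value rested on het replicate 2, without which it was -0.0072. Ccdc40 was at 145, 123 and 124 CPM in WT, 131, 115 and 124 CPM in het, and 140, 134, 133 and 121 CPM in homo, a log2 fold change of 0.10 ± 0.09 (unadjusted p = 0.278). The partners thus pointed in opposite directions, and neither passed the test.

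The radial spokes and the central pair regulate the arms. Rsph9, of the spoke head, was at 73.7, 80.6 and 92.2 CPM in WT, 72.8, 79.5 and 84.8 CPM in het, and 75.5, 64.7, 83.5 and 70.2 CPM in homo. Spef2, of the central pair and the highest of the 36 by CPM, was at 270, 307 and 248 CPM in WT, 272, 333 and 268 CPM in het, and 263, 282, 296 and 232 CPM in homo. Spag16, also of the central pair, on chromosome 1 (69826970 to 70725132, plus strand), had the third smallest p in both comparisons with WT. It was at 20.9, 21.4 and 16.4 CPM in WT, 25.2, 29.7 and 19.2 CPM in het, and 23.0, 28.7, 21.6 and 20.8 CPM in homo. Het overlapped with WT, and the log2 fold change was 0.34 ± 0.16 for het against WT (unadjusted p = 0.0554) and 0.27 ± 0.15 for homo against WT (unadjusted p = 0.102), both with an adjusted p of 1.00. Without het replicate 2 the first was 0.18, and without homo replicate 2 the second was 0.15.

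Tekt1, a tektin of the doublet wall, and Tppp3 varied little. Tekt1 stood at 42.4, 46.5 and 45.1 CPM in WT, 41.6, 48.0 and 47.4 CPM in het, and 44.5, 43.9, 47.4 and 39.8 CPM in homo. Tppp3, a tubulin polymerisation protein that is abundant in ciliated cells, was at 69.2, 68.5 and 71.9 CPM in WT, 65.0, 61.8 and 74.5 CPM in het, and 65.3, 66.3, 68.7 and 73.4 CPM in homo. For both genes the highest library exceeded the lowest by 1.21 times. The members of this group included Sntn, of the ciliary tip, Cdhr3, a cadherin of ciliated cells, and Ak7, an adenylate kinase of the axoneme, and they averaged 19.8, 25.8 and 19.4 CPM.

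The libraries differed from each other in a way that crossed the genotypes and followed transcript length. For each gene the log2 level in a library was set against the mean of that gene over the 10 libraries, and the 36 genes were divided at a median exon length of 2.89 kb into 18 long and 18 short ones. The long genes hold all the heavy chains, Hydin, Spag17, Spef2 and Rfx3. In homo replicate 2 the long genes stood 0.28 above their means by the median, and 18 of 18 were above, while the short genes stood 0.08 above. In het replicate 2 the medians were 0.26 for the long and -0.02 for the short genes. In het replicate 1 they were 0.14 and -0.03. WT replicate 3 showed the other order, with -0.26 for the long genes, of which 3 of 18 were above 0, and 0.02 for the short. In het replicate 3 the medians were -0.15 and 0.02. The other libraries differed less, with long minus short between -0.09 and 0.06.

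**Figure D3:**
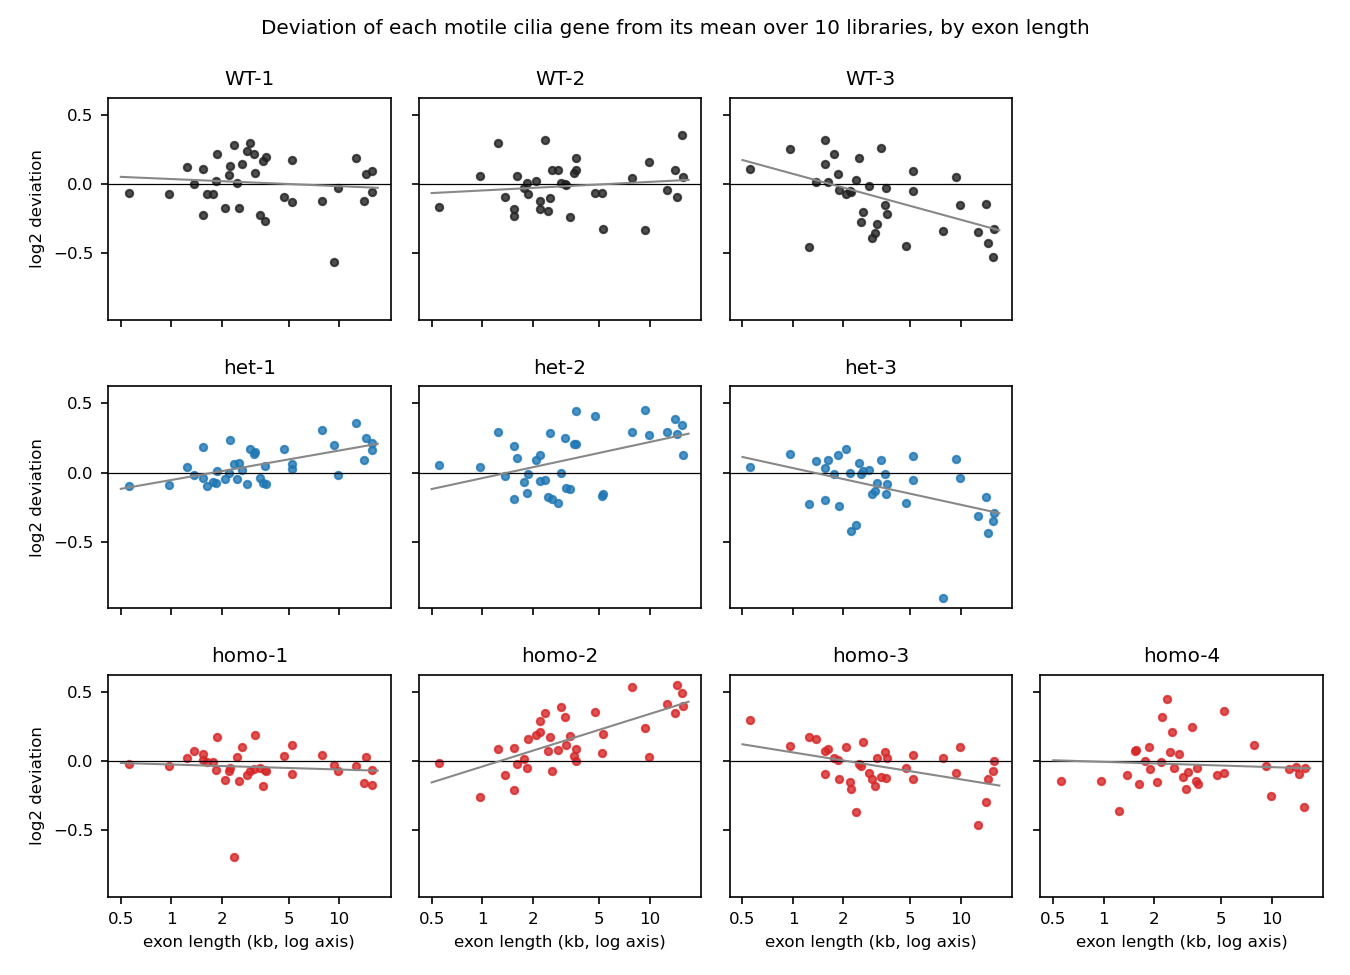
Log2 deviation (y axis) of each of the 36 motile cilia genes from its mean over the 10 libraries, against exon length in kb (log axis), with 1 panel per library and a fitted line. The line climbs in het-1, het-2 and homo-2 and slopes down in WT-3, het-3 and homo-3, with slopes from -0.10 to 0.11 per doubling of length.

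The slope of that deviation on length was 0.11 per doubling of exon length in homo replicate 2, 0.08 in het replicate 2 and 0.06 in het replicate 1. It was -0.10 in WT replicate 3, -0.08 in het replicate 3 and -0.06 in homo replicate 3, and between -0.02 and 0.02 in the other 4 libraries. Spearman's rho over the 36 genes was 0.64 in homo replicate 2 and -0.52 in WT replicate 3, a description across genes that share their libraries. Over all 16546 genes tested with a known length the slope was 0.08 in homo replicate 2, 0.05 in het replicate 2, -0.05 in WT replicate 3 and -0.05 in het replicate 3. Over 72 other motile cilia genes, the slope was 0.10 in homo replicate 2, 0.07 in het replicate 2, -0.03 in WT replicate 3 and -0.09 in het replicate 3. Total counts of these libraries lay inside the range of the rest. With the trend over all genes taken out of each library, rho over the 36 genes was 0.04 in homo replicate 2 and -0.27 in WT replicate 3. What set this trend was not tested.

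The spread within genotypes also differed between long and short genes. The median SD of the log2 level within a genotype was 0.23 for the 18 long genes, 0.14 for the 18 short ones and 0.167 for all 36. It was 0.176 for all genes tested with a length, and 0.159 for the 13416 of these whose mean level lay in the range of the 36. With the length trend removed, the medians were 0.20 for the long and 0.14 for the short genes, so that the long genes still varied more. For Dnah11 the SD was 0.25 and became 0.11 with the length trend removed, and for Hydin it went from 0.24 to 0.14. Dnah5 kept 0.27 of its 0.38, and Spag17, the most variable of the 36, kept 0.35 of its 0.42. Its het replicate 3 was at 3.498 CPM, below the 5.24 to 9.68 CPM of the other 9 libraries.

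Libraries of WT and het that carried the same number deviated together. The deviation of each gene from the mean of its own genotype was compared between libraries, over the 36 genes. Pearson's r was 0.47 for the WT and het libraries numbered 1, 0.69 for those numbered 2 and 0.55 for those numbered 3, while the 6 pairs with unlike numbers gave between -0.55 and 0.09. Deviations within a genotype of 3 sum to 0, which lowers the r of unlike pairs. Over all genes tested the same-numbered pairs had r of 0.33, 0.29 and 0.23. With the length trend removed, r over the 36 genes was 0.46, 0.61 and 0.46. Between WT and homo the same-numbered r were 0.04, 0.48 and 0.12, and between het and homo -0.20, 0.58 and 0.51, and over all genes tested they lay between -0.15 and 0.16. Unlike-numbered pairs with homo ran from -0.75 (het replicate 3 with homo replicate 2) to 0.56 (het replicate 1 with homo replicate 2) over the 36 genes. Over all genes tested these unlike pairs ran from -0.39 to 0.27 (WT replicate 3 with homo replicate 4). The labels do not say what a shared number stands for.

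**Figure D4:**
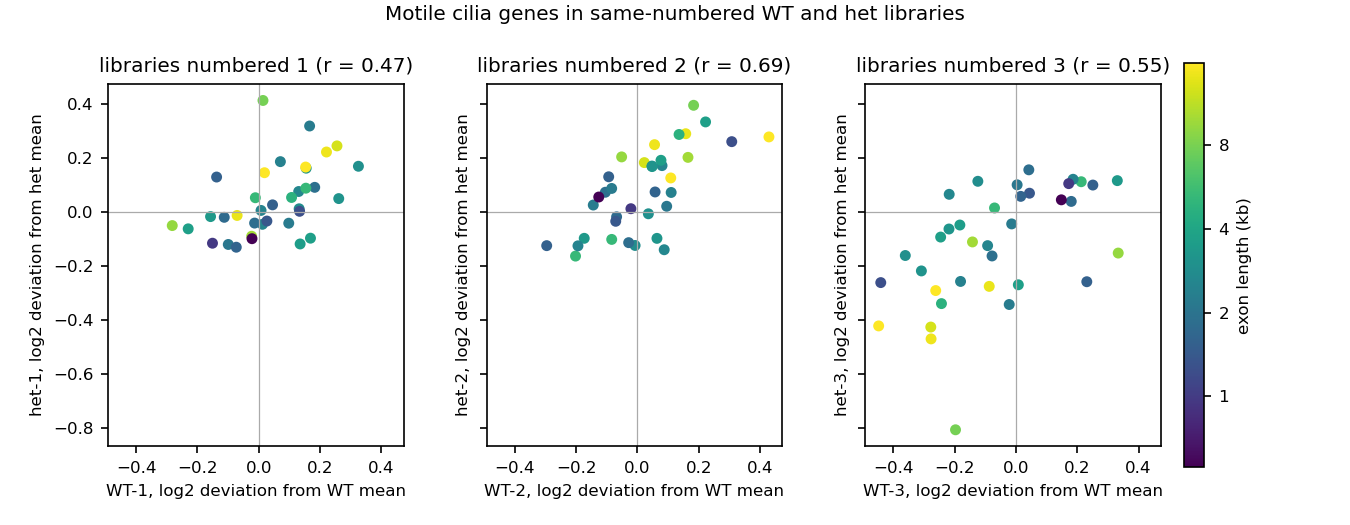
Log2 deviation of each of the 36 motile cilia genes from its genotype mean in a WT library (x axis) and in the het library with the same number (y axis), 1 panel per number and coloured by exon length. Points run from the lower left to the upper right, with r of 0.47, 0.69 and 0.55, and the longest genes lie at the upper right for number 2 and at the lower left for number 3.

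Set against each other by number, het exceeded WT in 3 of 3 pairs for 8 of the 36 genes (22.2%, against 13.7% of all genes tested), namely Rfx3, Dnaic1, Dnah6, Ccdc114, Lrrc6, Hydin, Spag16 and Spef2. It was below WT in 3 of 3 pairs for 2 of the 36, Mcidas and Rsph9 (5.56%, against 13.997%). For Rfx3 the differences were 0.76, 0.78 and 0.04 on the log2 scale, so that the pair numbered 3 was nearly equal. For Dnaic1 they were 0.24, 0.39 and 0.27, and for Spag16 0.27, 0.47 and 0.23. With the number as a block in WT and het libraries alone, 5 of the 36 had an unadjusted p under 0.05 (Rfx3, Dnaic1, Spag16, Dnah9 and Dnah11), against 6.59% of all genes tested in that fit, 0 passed the adjusted p, and 3 genes in all were called, whereas the test without the block called 0.

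Other genes of motile cilia were compared in the same way. Of 90 further symbols, 74 had a row and 72 were tested, and 0 passed the adjusted p in any comparison. Their median log2 fold change was 0.04 in homo and 0.06 in het, each set against WT, and -0.01 in homo set against het. Over all genes tested these medians were at most 0.000974 in size. Cfap69, of the central pair, and Cfap44 were the most abundant of them, at means of 321 and 161 CPM. Of 33 genes of intraflagellar transport and the BBSome, which carry cargo in every cilium, 0 passed, with medians of 0.02, 0.05 and -0.06; Ift80 and Kif3a led them at 211 and 194 CPM. In het against WT, 28 of these 33 were higher, with 49.8% of all genes tested higher. In homo against WT 20 were higher and in homo against het 9, with 50.03% and 49.7% of all genes tested. The 33 genes share the same libraries, so these counts are a description and not a test. Their sum was 3108, 3380 and 3190 CPM in het replicates 1, 2 and 3, and 2988 to 3142 CPM in WT.

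Markers of the other cells of the tissue showed no called gene either, and their part in the values above was not tested. None of the 12 tested markers of secretory cells, 10 of mature sensory neurons, 9 of sustentacular cells, 5 of basal cells and 6 of ependyma and brain passed in any comparison. At an unadjusted p under 0.05 for homo against WT stood Gfap and Slc17a7, 2 of the 6 ependyma and brain markers. Spdef of the secretory cells stood there too, against 2.41% of all genes tested. For homo against het it was Slc17a7, Spdef and the basal Krt15 (2.48% of all genes tested). For het against WT it was the secretory Tff2 (1.92%). Gfap ran from 1.46 to 4.29 CPM and Slc17a7 from 0.488 to 5.28 CPM. The neuron markers summed to 9835 to 10849 CPM in WT, 9662 to 11023 in het and 9365 to 10712 in homo. In het replicate 2 and homo replicate 2, where the motile cilia sum was highest, they were at 9662 and 9365 CPM. In homo replicate 4, where the motile cilia sum was lowest, they were at 9641 CPM. The sustentacular markers, led by Cyp2a5 at 6057 CPM, stood at 11492 to 12334, 12092 to 13105 and 10914 to 13411 CPM. The basal markers, led by Krt5 at 69.9 CPM, stood at 143 to 159, 130 to 151 and 143 to 175 CPM. Ependyma and brain markers, led by the neuronal Snap25 at 158 CPM, stood at 365 to 390, 376 to 443 and 354 to 406 CPM.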

How the data were processed

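The authors prepared directional libraries with poly(A) selection from whole MOE, and per the labels reads were trimmed with Trimmomatic 0.36, aligned to mm10 with HISAT2 2.1.0 and counted per gene with featureCounts of Subread 1.6.2; strand setting and annotation version are not given in the sources used here. The deposited raw counts were used. The deposited normalized table was not used. No column lacked a sample (0).

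Genes were filtered with filterByExpr (minimum count 10, total 15), which kept 17197 genes and 99.97% of counts. Libraries were scaled by TMM and tested with the quasi-likelihood F test of edgeR 4.0.16 (R 4.3.3), two-sided, with genotype as the only term over all 10 libraries, robust estimation and Benjamini-Hochberg adjustment over all genes tested. The common biological coefficient of variation was 13.9%. Library totals ranged from 21423861 to 27712948 counts. Log2 levels for deviations used a prior count of 2. Exon length, position and overlap came from GENCODE annotation of mm10, and promoters from RefSeq GRCm38.p6.

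The gene list, its roles and the marker lists were chosen with earlier results of these data known. Every gene was accounted for. Fold changes were printed for genes with an adjusted p under 0.05, or else for the 3 with the smallest p, and for Foxj1 and Dnah5. Values in every library were printed for these and for the gene with the highest mean CPM of each role. From the other lists at most 2 genes with the highest mean CPM were named; Spag17, the marker genes at or near 0 and genes named in counts were added after their values were seen.

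The replicate numbers come from the sample titles. Within-genotype deviations of same-numbered libraries correlated at 0.33, 0.29 and 0.23 between WT and het over all genes, above 0.1 in each pair, which was taken as pairing. Homo did not meet this. Alternatives covered scaling (RLE, upper quartile, library totals), filters, DESeq2 1.42.0, limma-voom (limma 3.58.1), a fit without robust estimation, 2 genotypes alone, the replicate block and each library left out. In the block over all libraries, homo replicate 4 had no partner of the same number and so had no part in the fold changes. The length trend (loess, span 0.5) and a block restricted to WT and het libraries were added after seeing the data. The procedure was tested on simulated data with known changes.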

Additional observations from a re-analysis of the deposited data

Results flagged for a closer look

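In the 4 homo libraries, 54 values were checked for 1 library far from the others (the 36 genes, the list sums and the sums per role), and 6 were far by Dixon's criterion, which chance gives in about 1 in 20 groups. All 6 were homo replicate 2. The 54 values come from the same 4 libraries, and several sums hold genes that were also checked singly. They are thus not independent, and 6 of 54 cannot be set against that share. Rfx3 was at 265 CPM there and at 212 to 220 CPM in the other 3. Spag17 was at 9.68 CPM against 6.75 to 7.22, and Cdhr3 at 33.5 CPM against 23.3 to 24.2. Tekt2, a short tektin gene, was low there, at 14.5 CPM against 17.4 to 17.8. The summed outer dynein arm genes reached 355 CPM against 245 to 262, and the 74 other motile cilia genes 2544 CPM against 2282 to 2304. This library also had the steepest length slope over all genes tested, at 0.08 per doubling, and its part in these values was not tested.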

How the results depend on the processing

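In all 23 alternative settings of the test 0 of the 36 genes were called in each comparison they applied to. Summed levels stayed within 1 SD of the genotype means given. The medians moved by less than 0.085 on the log2 scale, the SD of a library's median deviation within its genotype. All 3 medians are smaller than that, and each changed sign in some setting. Leaving out each library in turn, the median log2 fold change ranged from -0.024 to 0.063 between homo and WT, from -0.00143 to 0.093 between het and WT, and from -0.071 to 0.026 between homo and het. With the replicate block, 19 genes in all were called between homo and WT, 24 between homo and het and 22 for any genotype, and with the length trend removed as well, 22 between homo and het and 22 for any genotype. With a block restricted to WT and het libraries, 3 were called between these. The block changed no call among the 36 genes.

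Rfx3, Dnaic1, Spag16, Ccdc39, Ccdc40, Foxj1 and Dnah5 were recomputed under each setting for the comparisons in which their test is printed. Of these, Foxj1 and Dnah5 changed sign. With all libraries in the main test, the values of both were smaller than their SE. Leaving out 1 library at a time, Foxj1 between homo and WT ranged from -0.0897 (without WT replicate 3) to 0.0723 (without WT replicate 1). Dnah5 ranged from -0.122 (without WT replicate 3 or homo replicate 2) to 0.310 (without WT replicate 2) between homo and WT, from -0.0626 (without WT replicate 3) to 0.374 (without WT replicate 2) between het and WT, and from -0.256 (without homo replicate 2) to 0.0837 (without het replicate 2) between homo and het. Dnah5 between homo and het was also 0.0543 with the replicate block and 0.0803 with the block and the length trend removed. The block gives homo replicate 4 no part in the fold changes. With that library left out and no block, the value was 0.0458. The cause of these changes of sign was not tested. In the simulated data, 17 of the 36 genes given a 1.5-fold change between homo and WT were called (47.2%). That simulation gave every gene the same spread and held no length trend or pairing by number. Changes of 1.5-fold in single genes could thus be missed.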
